A study of Homo sapiens with 36 samples.

Results

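The genes described here serve the endoplasmic reticulum (ER): 51 genes for the entry of proteins into this compartment, for their glycosylation, folding and disposal there, and for the stress response that watches over it. They were chosen by name from a list of translocon, signal recognition, glycosylation, chaperone and unfolded protein response genes, and all 51 were found among the 58219 genes listed for total RNA and the 43582 listed for ribosome footprints. The choice used gene names only, but the list was proposed with results of these same libraries in view, so its counts and medians are descriptions and not independent evidence. The cells were WiT49, an established line from an anaplastic Wilms tumor, a kidney tumor of childhood. They received 2 nM actinomycin D (actD), which inserts into DNA and stops RNA polymerases, or its vehicle DMSO, for 6 h, for 72 h or for 2 weeks. The 2-week arm consisted of 2 cycles of 7 days, with actD or DMSO in the medium on 3 days and neither on the other 4. Total RNA and ribosome footprints, the RNA fragments that a translating ribosome shields from nuclease, were sequenced from 3 libraries per group, 36 libraries in all. For the 2-week RNA libraries the titles give one treatment and the library names the other, so the library names are used here, as named actd and named dmso, and their difference is named actd minus named dmso. All groups are of 1 cell line, and the labels do not say whether the 3 libraries of a group came from separate cultures, so the p-values measure only the spread between these libraries, which may be technical.

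Proteins destined for secretion or for membranes carry a signal peptide that the signal recognition particle (SRP) binds as it leaves the ribosome. The SRP receptor then docks the ribosome at the Sec61 channel, beside which sit the translocon-associated protein (TRAP) complex, signal peptidase, which removes the signal, and oligosaccharyltransferase, which attaches sugar chains. Inside, chaperones such as BiP (HSPA5) and oxidoreductases fold the chain, and misfolded chains return to the cytosol for degradation by the proteasome. When folding fails, the sensors ATF6, IRE1 (ERN1) and PERK (EIF2AK3) start the unfolded protein response, in which cleaved ATF6 and spliced XBP1 drive transcription of chaperone and degradation genes. The 51 genes were ordered by these roles: 8 of SRP and its receptor, 11 of the translocon and its helpers, 5 of signal peptidase, 7 of oligosaccharyltransferase, 12 chaperones and oxidoreductases, 4 for the sensors and XBP1, and 4 of ER-associated degradation.

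The stress response acts through short promoter elements, and these are shown because the genes that carry them are followed through the results. Promoters from 250 bases before to 50 bases after the start site (RefSeq, build GRCh38.p14) were at hand for 45 of the 51 genes and were searched on both strands for exact matches. The ER stress response element (ERSE), CCAAT and CCACG with 9 bases between them, was found in 6 of the 45 genes (13.3%) and in 0.0916% of the 27305 genes with such a promoter. The element ERSE-II, ATTGG and CCACG with 1 base between them, was found in 2 of the 45 (4.44%, against 0.0696% of all). Another element, UPRE, TGACGTGG, was found in 5 of the 45 (11.1%, against 0.927% of all), namely HYOU1, SEC62, SRP19, SSR3 and SSR4, and in HYOU1 it overlapped an ERSE-II. The sites of the first 2 elements follow in the direction of the motif, with the fixed bases in capitals. A match is a description of the letters in these windows and not a measurement of binding.
CALR, ERSE, chr19:12938384-12938402, minus strand: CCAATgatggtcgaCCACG
CANX, ERSE, chr5:179698778-179698796, plus strand: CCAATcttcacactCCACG
HSP90B1, ERSE, chr12:103930216-103930234, plus strand: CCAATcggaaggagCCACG
HSP90B1, ERSE, chr12:103930321-103930339, minus strand: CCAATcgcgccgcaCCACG
HSPA5, ERSE, chr9:125241391-125241409, minus strand: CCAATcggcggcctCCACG
PDIA6, ERSE, chr2:10812853-10812871, minus strand: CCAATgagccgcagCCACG
XBP1, ERSE, chr22:28800603-28800621, minus strand: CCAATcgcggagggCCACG
HERPUD1, ERSE-II, chr16:56932025-56932035, plus strand: ATTGGgCCACG
HYOU1, ERSE-II, chr11:119057380-119057390, plus strand: ATTGGaCCACG
HYOU1, ERSE-II, chr11:119057274-119057284, plus strand: ATTGGaCCACG

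For HSPA5, the main ER chaperone gene, the 250 bases before the start site are shown whole, since this gene recurs in each comparison. They lie at chr9:125241344-125241593 on the minus strand of GRCh38.p14, and capitals mark the fixed bases of the ERSE.
HSPA5 upstream: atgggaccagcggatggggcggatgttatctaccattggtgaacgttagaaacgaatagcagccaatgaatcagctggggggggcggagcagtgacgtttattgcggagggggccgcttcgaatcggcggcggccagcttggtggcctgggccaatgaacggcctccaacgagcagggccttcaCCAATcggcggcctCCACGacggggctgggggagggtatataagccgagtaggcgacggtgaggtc

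RNA libraries held 40221994 to 69240041 counts and footprint libraries 152556 to 1281039, and the footprint library with the fewest was replicate 3 of 72 h DMSO. Values below are CPM, counts relative to library size scaled by the TMM method, compared only within 1 assay and time point. Of the markers that the WiT49 label implies, IGF2, VIM, KRT8 and KRT18 were abundant in RNA at 6 h (IGF2 1245, 1468 and 1708 CPM in DMSO), WT1 lay between 7.48 and 13.2 CPM, and the nephron progenitor genes SIX2, PAX2, PAX8, CITED1, EYA1 and SALL1 all lay under 1 CPM. Of the mesenchyme markers, COL1A1 lay between 438 and 538 CPM, COL3A1 between 989 and 1764 and PDGFRB between 41.2 and 49.9 at 6 h, while COL1A2 was listed at 0. The blood marker PTPRC was listed at 0 in every 6 h RNA library but reached 0.420 CPM in DMSO replicate 3 of 72 h. Other blood markers were detected at low levels at 6 h, CD68 between 0.470 and 2.10 CPM and HBA1 and HBA2 under 1 CPM. Of the endothelial markers at 6 h, VWF lay between 0.405 and 1.24 CPM and PECAM1 and CDH5 under 1 CPM. Replicate 3 of 72 h DMSO RNA stood apart in stress genes, as described with those results. The keratin gene KRT8 varied among the 72 h RNA libraries, with overlapping groups, at 643, 654 and 981 CPM with actD and 1321, 961 and 567 with DMSO. VIM was lower with actD in 72 h RNA without overlap, at 159, 157 and 171 CPM against 216, 204 and 224 in DMSO, and SALL1 higher, at under 1 CPM in every library. In 72 h footprints COL1A1 was higher with actD without overlap, at 2734, 1887 and 5422 CPM against 989, 919 and 1405. The part of these markers in the results was not tested.

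In total RNA the ER genes were well expressed. The 51 genes together took 0.778% to 0.886% of protein-coding counts in DMSO and 0.821% to 0.841% with actD at 6 h, and the groups overlapped. At 72 h the shares were 1.13% to 1.40% in DMSO and 1.19% to 1.37% with actD, and again overlapped. Per kilobase of exon, the DMSO level at 6 h was highest for SRP9 (163 ± 59.5 CPM per kb, SD, n = 3), CALR (158 ± 27.8) and SEC61B (109.04 ± 18.4). These 3 encode an SRP subunit, the lectin chaperone calreticulin and a small channel subunit, and the spread of SRP9 reached down to the other two. The lowest were the sensor ERN1 (1.57 ± 0.0998), the alternative channel subunit SEC61A2 (2.17 ± 0.214) and the ubiquitin ligase SYVN1 (2.29 ± 0.189). In 12 of the 51 genes a pseudogene carries the gene's name, among them SRP9, SRP14 and OSTC, 15 overlap another gene on the same strand and 31 one on the other strand. Whether the counting used strand is not given in the sources used here, so reads of such genes cannot be assigned with certainty.

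After 6 h of actD, 1 ER gene stood apart in RNA. SEC61A1, which encodes the pore subunit of the Sec61 channel, lay below every DMSO library in every actD library, with a log2 difference of -1.23, while the other 50 ER genes lay between -0.31 and 0.51. No ER gene passed the threshold of an adjusted p under 0.05 in edgeR's quasi-likelihood test, as no gene of all 22669 tested did (0% called). At an unadjusted p under 0.05, 1 ER gene was higher and 1 lower (all genes 3.67% and 4.54%). In 2 ER genes all actD libraries lay above all DMSO libraries and in 3 below, or 3.92% and 5.88%, against 7.66% and 8.17% of all genes. The median log2 difference of the 51 genes was 0.0097, beside 0.021 for all genes tested, with 26 higher and 25 lower.

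SEC61A1 lies at chr3:128051641-128071683 (GRCh38, GENCODE release 29, plus strand). Its RNA level at 6 h was 241, 208 and 192 CPM in the DMSO libraries and 88.0, 100.03 and 84.5 with actD. The groups did not overlap, and the highest actD value was far below the lowest DMSO value. The log2 difference was -1.23 (SE 0.13, edgeR adjusted p = 0.0596), which missed the threshold. DESeq2 called it (adjusted p = 2.63e-11), the only ER gene it called at 6 h, among 204 of all genes (0.9%). Over the other settings of edgeR the log2 difference ran from -1.31 to -1.14 and the adjusted p from 0.0777 to 0.517. RUVBL1 and MGLL overlap SEC61A1 on the other strand. RUVBL1 was at 114, 104 and 70.0 CPM in DMSO and 80.6, 87.9 and 84.3 with actD, with overlapping groups, and MGLL lay under 1 CPM in all 6 libraries.

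**Figure D1:**
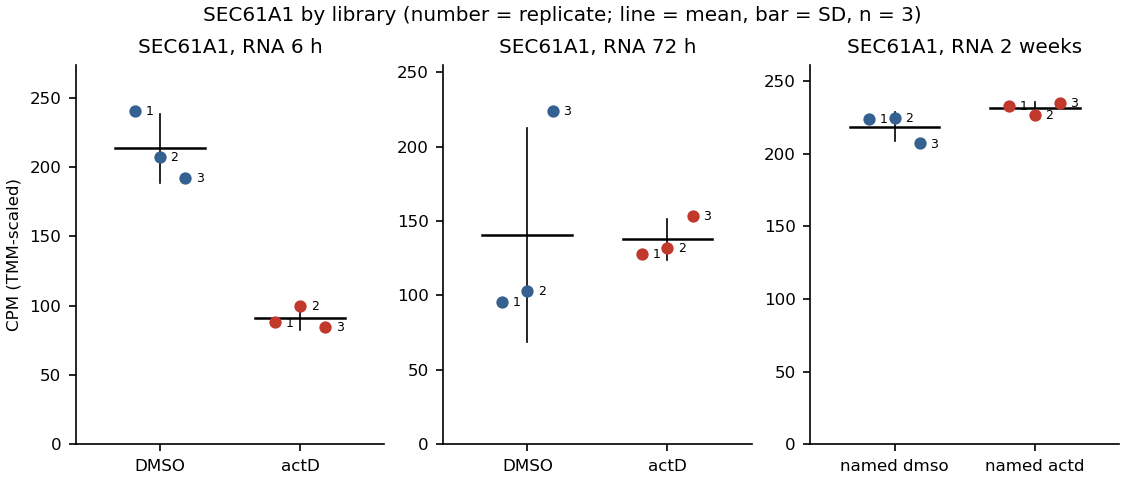
SEC61A1 RNA in CPM (vertical axis) in each library at 6 h, 72 h and 2 weeks, with the replicate number beside each point, the mean as a line and the SD as a bar. At 6 h the 3 actD libraries lie between 84.5 and 100.03 CPM, below the DMSO libraries at 192 to 241 CPM, and at 72 h DMSO replicate 3 stands at 224 CPM above the other 5 libraries.

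At 72 h the SEC61A1 groups overlapped. The level was 95.5, 103 and 224 CPM in DMSO and 128, 132 and 154 with actD, and the third DMSO library was the highest of the 6. At 2 weeks it was 224, 225 and 207 CPM in named dmso and 233, 227 and 235 in named actd, a small step between groups that did not overlap (log2 difference 0.084, SE 0.1, edgeR adjusted p = 0.835). The change between 6 h and 72 h in the effect of actD on SEC61A1, tested as the treatment-by-time interaction, was 1.18 (SE 0.4, edgeR adjusted p = 0.512). Without DMSO replicate 3 of 72 h it rose to 1.70 and passed the threshold (adjusted p = 0.021).

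The other 4 genes whose groups did not overlap at 6 h had smaller differences. SEC62, a channel partner for post-translational import, was at 42.1, 62.3 and 67.1 CPM in DMSO and 73.3, 76.9 and 94.8 with actD, a log2 difference of 0.51 (SE 0.19, edgeR adjusted p = 0.568). SPCS3 of signal peptidase had 144, 144 and 139 and 154, 152 and 182 CPM, 0.20 (SE 0.12, edgeR adjusted p = 0.712). In SRP54, the subunit that binds signal peptides, the values were 51.8, 56.9 and 51.9 CPM in DMSO and 49.1, 49.98 and 41.3 with actD, -0.19 (SE 0.12, edgeR adjusted p = 0.722). SRP68, of the SRP core, had 44.0, 43.6 and 46.8 and 38.2, 42.1 and 37.9 CPM, -0.19 (SE 0.1, edgeR adjusted p = 0.697). In each the gap between the groups was small beside their levels.

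The stress genes overlapped between the groups at 6 h. HSPA5 was at 162, 138 and 182 CPM in DMSO and 149.9, 156 and 163 with actD, and the groups overlapped (-0.04, SE 0.13, edgeR adjusted p = 0.971). HSP90B1, the ER form of HSP90, had 222, 223 and 258 and 291, 246 and 234 CPM, 0.13 (SE 0.13, edgeR adjusted p = 0.851). XBP1 lay at 73.2, 65.3 and 58.0 and 72.0, 57.4 and 62.7 CPM, -0.032 (SE 0.13, edgeR adjusted p = 0.976). Their differences were smaller than or near their standard errors. The 3 sensors were likewise close, with log2 differences of -0.021 for ATF6 (SE 0.11), 0.11 for ERN1 (SE 0.12) and -0.058 for EIF2AK3 (SE 0.11).

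At 72 h the RNA of the ER chaperones and of several stress genes lay on the lower side with actD, none of them past the threshold, while the translocon genes lay near 0. Of the 51 genes 39 had a negative log2 difference, with a median of -0.18 beside 0.018 for all genes. All 12 chaperones and oxidoreductases were on the lower side, with a median of -0.35, as were 3 of the 4 genes of the sensors and XBP1 (median -0.63) and 3 of the 4 of degradation (-0.44). The 11 translocon genes had a median of -0.0014 and oligosaccharyltransferase one of -0.16. No ER gene was called by edgeR, against 1 of all 21195 genes (0.00472%). Unadjusted p-values under 0.05 were found in 9 lower ER genes and 1 higher (all genes 7.78% and 5.27%). The groups did not overlap in 12 lower ER genes, or 23.5% against 10.3% of all genes, and in 2 higher ones, or 3.92% against 10.5%. A lower level in such bulk RNA may mean fewer cells of one kind or less RNA per cell, which cannot be told apart.

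**Figure D2:**
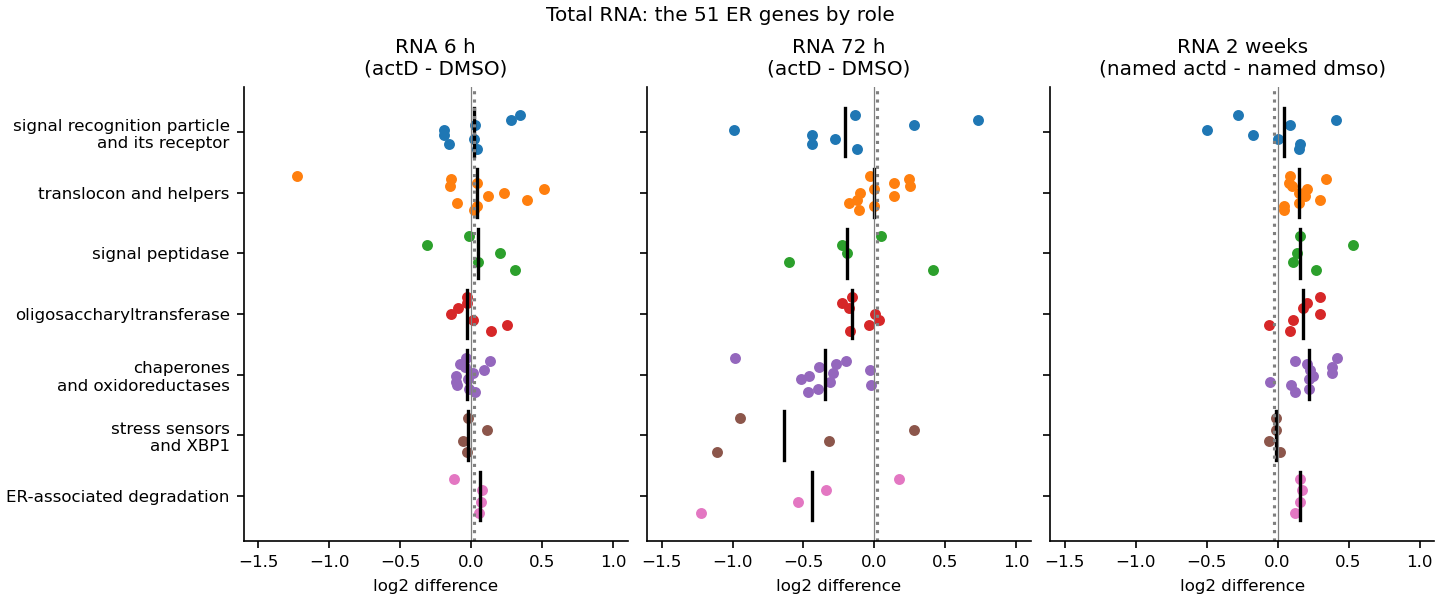
Log2 differences in total RNA (horizontal axis) of the 51 ER genes at 6 h, 72 h and 2 weeks, 1 point per gene, by role; black bars are role medians and the dotted line is the median of all genes tested. At 72 h all 12 chaperones lie on the lower side (median -0.35) and at 2 weeks 43 of the 51 genes lie on the higher side.

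DMSO replicate 3 bears on these counts. It had the highest value of the 3 DMSO libraries in 36 of the 51 genes. Without it 27 genes were lower and 24 higher, with a median of -0.058 beside 0.056 for all genes. The chaperones still held 10 of 12 on the lower side (median -0.25), whereas 10 of the 11 translocon genes were then higher (median 0.20). The sensors and XBP1 then had a median of -0.31, with 3 of 4 lower, and the degradation genes one of -0.00092, with 2 of 4 lower. In 14 ER genes the actD libraries then lay below both DMSO libraries and in 6 above, against 18.8% and 19.6% of all genes. Why that library differs was not tested.

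HSPA5 was 210.2, 272 and 304 CPM in DMSO and 94.3, 105 and 198 with actD at 72 h. Every actD library lay below every DMSO library, the third by a small margin. The log2 difference was -0.98 (SE 0.32, edgeR adjusted p = 0.298), and -0.87 without DMSO replicate 3. XBP1, the transcription factor that IRE1 activates by splicing, was at 77.0, 59.8 and 79.6 CPM in DMSO and 40.8, 37.5 and 22.3 with actD, without overlap. For XBP1 the log2 difference was -1.11 (SE 0.27, edgeR adjusted p = 0.257). DESeq2 called XBP1 (adjusted p = 0.0196), the only ER gene among its 605 calls (2.85%). These gene counts do not separate the spliced from the unspliced XBP1 message.

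ATF6, the sensor that is cleaved into a transcription factor, was 76.3, 65.6 and 144 CPM in DMSO and 43.7, 42.2 and 62.2 with actD, with the third DMSO library well above the other 2. Its log2 difference was -0.95 (SE 0.33, edgeR adjusted p = 0.322). When all 3 time points were fitted together, edgeR called HSPA5 (adjusted p = 0.0391), XBP1 (0.00563) and ATF6 (0.0337), within 4.89% of all genes called there. The other sensors did not separate: ERN1 was 15.4, 13.7 and 25.7 and 20.3, 20.6 and 25.6 CPM (0.28, SE 0.28, edgeR adjusted p = 0.7). EIF2AK3 was 25.9, 24.4 and 38.2 CPM in DMSO and 21.9, 22.5 and 26.8 with actD (-0.32, SE 0.24, edgeR adjusted p = 0.597).

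HERPUD1, a stress-induced partner of the SYVN1 ubiquitin ligase, had the most negative log2 difference of the 51 genes, and 1 library made most of it. It was 20.9, 17.9 and 69.3 CPM in DMSO and 16.9, 16.2 and 13.5 with actD, so the groups did not overlap, but replicate 3 alone was far above the rest. The log2 difference was -1.22 (SE 0.51, edgeR adjusted p = 0.37), and -0.33 without that library. The same library was highest for EDEM1 at 71.8 CPM and for the co-chaperone DNAJB9 at 44.0. Beyond the 51 genes it stood out in DDIT3, the death-promoting factor CHOP, at 20.9, 17.7 and 89.9 CPM in the 3 DMSO libraries and 32.5, 29.3 and 24.6 with actD, in TRIB3 (15.1, 17.6 and 78.7 in DMSO) and in CHAC1 (2.78, 3.54 and 25.4). Those 3 are targets of the PERK and ATF4 arm of the stress response.

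Among the other chaperones, the protein disulfide isomerases were lower without overlap in 3 cases. PDIA6 was 217, 188 and 262 CPM in DMSO and 167, 165 and 132 with actD (-0.52, SE 0.21, edgeR adjusted p = 0.361). PDIA4 had 110.4, 116 and 124 and 80.5, 80.1 and 93.7 CPM (-0.46, SE 0.18, edgeR adjusted p = 0.34). P4HB, the founding isomerase, had 248.7, 268 and 269 and 205, 239.7 and 190.4 CPM (-0.31, SE 0.19, edgeR adjusted p = 0.521). Calreticulin (CALR, -0.39) and the HSP70-like HYOU1 (-0.27) also separated without overlap. HSP90B1 did not, at 414, 439 and 565 CPM in DMSO and 432, 406 and 396 with actD (-0.20, SE 0.21, edgeR adjusted p = 0.704). Calnexin (CANX, -0.034) and the peroxiredoxin PRDX4 (-0.024) were close to 0.

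The SRP genes did not move together at 72 h. SRP14, of the Alu domain that slows translation, was higher without overlap, at 112, 139 and 100.31 CPM in DMSO and 206, 213 and 166 with actD (0.73, SE 0.21, edgeR adjusted p = 0.276). SRP54 was lower, at 51.7, 49.7 and 50.9 and 15.8, 19.8 and 40.8 CPM (-0.99, SE 0.35, edgeR adjusted p = 0.322), with the first 2 actD libraries far below the DMSO values and the third much nearer. The receptor subunit SRPRA was 117, 105 and 129.7 CPM in DMSO and 83.2, 88.8 and 87.1 with actD (-0.44, SE 0.18, edgeR adjusted p = 0.356). SRP9, the partner of SRP14, ran from 275 to 958 CPM over the 6 libraries in no order of treatment. SEC11C, a catalytic subunit of signal peptidase, was the second gene that separated upward, at 17.8, 17.0 and 20.9 and 23.7, 24.5 and 25.9 CPM (0.41, SE 0.19, edgeR adjusted p = 0.41). RPN2 was the only oligosaccharyltransferase gene that separated, and it was lower (-0.23).

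**Figure D3:**
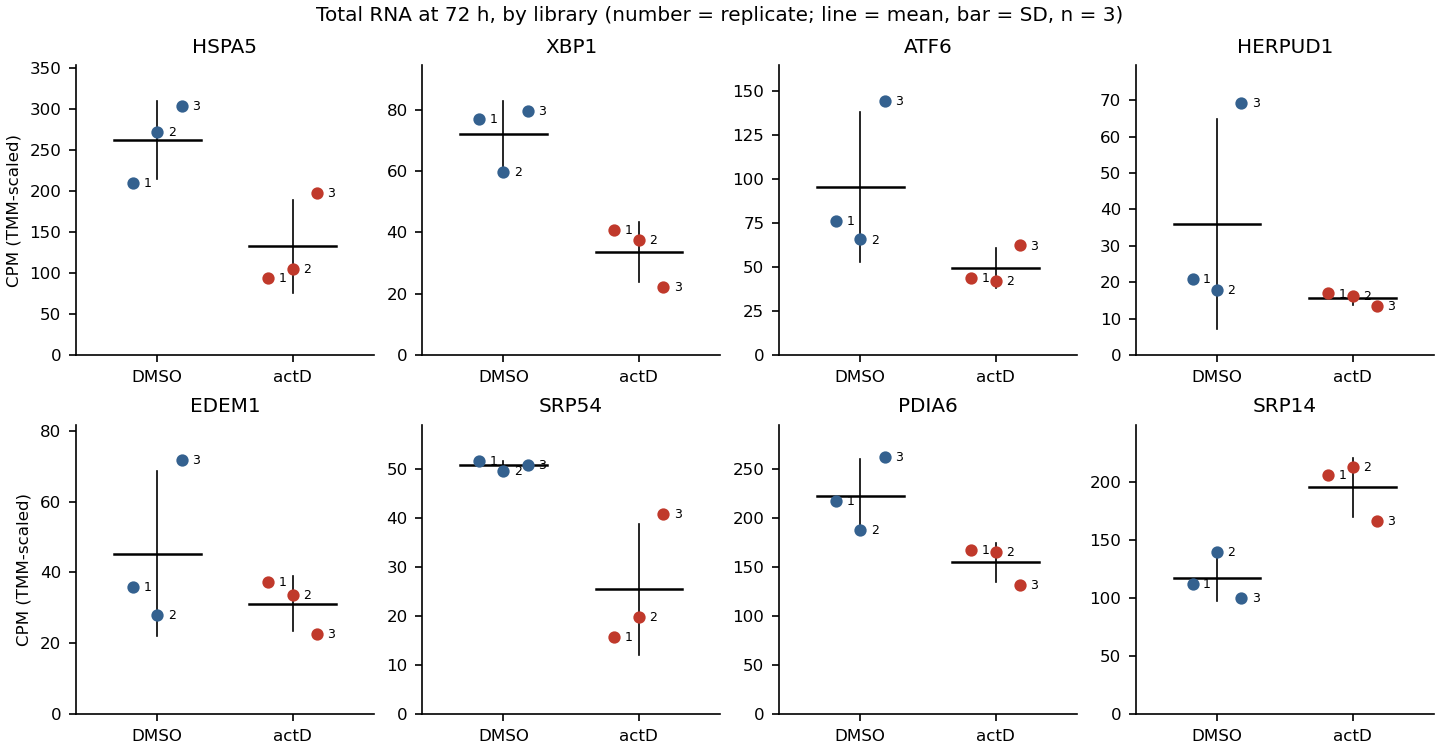
RNA at 72 h in CPM (vertical axis) of 8 ER genes in each DMSO and actD library, with the replicate number beside each point, the mean as a line and the SD as a bar. HSPA5, XBP1, ATF6, HERPUD1, SRP54 and PDIA6 lie lower with actD without overlap and SRP14 higher, EDEM1 overlaps, and DMSO replicate 3 is far above the other DMSO libraries in HERPUD1, EDEM1 and ATF6.

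Tested against 6 h, the 72 h effect on RNA was called to differ in no ER gene (0.0165% of all genes called; 5 ER genes lower and 1 higher at an unadjusted p under 0.05, against 5.18% and 2.84% of all, and none by DESeq2). Leaving out actD replicate 3 of 72 h brought in SRP54. The median interaction of the 51 genes was -0.27, beside -0.030 for all genes. The most negative were HERPUD1 at -1.30 (SE 0.57, edgeR adjusted p = 0.608), XBP1 at -1.10 (SE 0.31, edgeR adjusted p = 0.437) and HSPA5 at -0.96 (SE 0.38, edgeR adjusted p = 0.578). Without DMSO replicate 3 of 72 h that median was -0.09.

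At 2 weeks most ER genes were slightly higher in the libraries named actd. Of the 51 genes 43 had a positive difference, with a median of 0.15 beside -0.024 for all genes. All 11 translocon genes, all 5 of signal peptidase, all 4 of degradation, 6 of 7 of oligosaccharyltransferase and 11 of 12 chaperones were on that side. The sensors and XBP1 stayed near 0 (median -0.011). No ER gene was called by edgeR, as no gene of all 21137 was (0%), and DESeq2 called none of the 51 among its 197. An unadjusted p under 0.05 was reached by 3 higher ER genes and no lower one (all genes 4% and 4.93%). The groups did not overlap in 10 ER genes, all higher, or 19.6% against 7.86% of all genes, and in no lower one against 7.83%.

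This upward side depends on the scaling. With library totals in place of TMM the median of all genes moved by -0.16, to -0.18, and that of the ER genes to -0.0038, with 24 higher and 27 lower and 1 gene without overlap. The ER median minus the median of all genes was 0.18 with TMM and 0.17 with library totals. If the titles are right, all signs at 2 weeks turn round. Named dmso replicate 3 was the lowest of its group in 36 of the 51 genes and named actd replicate 3 the highest of its group in 41. Without named dmso replicate 3 there were 42 higher genes, with a median of 0.10.

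HSPA5 illustrates the size of these differences: it was 140.0, 135 and 86.5 CPM in named dmso and 173, 138 and 175 in named actd. The groups overlapped narrowly, and the third named dmso library was the lowest of the 6. The log2 difference was 0.42 (SE 0.2, edgeR adjusted p = 0.58). PDIA3, the isomerase of the calnexin cycle, separated at 203, 194 and 134 and 227, 222 and 244 CPM (0.38, SE 0.17, edgeR adjusted p = 0.559). SRP14 separated at 103, 84.8 and 136 and 140.0, 139 and 149 CPM (0.41, SE 0.17, edgeR adjusted p = 0.546). SEC61A2, at low levels, had 5.32, 4.80 and 3.50 and 5.79, 6.08 and 5.41 CPM (0.34, SE 0.19, edgeR adjusted p = 0.637). Also apart were SRPRA, SEC61A1, SEC11C, RPN1, STT3A, PDIA6 and HERPUD1, with log2 differences between 0.084 and 0.30.

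The stress factors themselves did not separate at 2 weeks. XBP1 was 55.8, 60.6 and 67.1 CPM in named dmso and 60.0, 59.4 and 66.0 in named actd (0.015, SE 0.11, edgeR adjusted p = 0.977). ATF6 was 71.7, 73.6 and 60.2 and 74.1, 60.8 and 69.2 CPM (-0.01, SE 0.13, edgeR adjusted p = 0.985). HSP90B1 was 343, 322 and 228 and 322, 283 and 362 CPM (0.12, SE 0.18, edgeR adjusted p = 0.869). ERN1 and EIF2AK3 differed by -0.012 and -0.063, with SEs of 0.12 and 0.12.

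The 8 genes with an ERSE or ERSE-II shown above (HSPA5, HSP90B1, CALR, CANX, PDIA6, XBP1, HERPUD1 and HYOU1) were 3 higher and 5 lower at 6 h (median -0.027). At 72 h all 8 were lower with a median of -0.45, while the other 43 ER genes had 31 lower and a median of -0.14. Those 43 include the 6 genes without a promoter at hand, which were not searched for the elements. In 6 of the 8 the groups did not overlap, all lower (75.0%), against 6 lower and 2 higher of the other 43 (14.0% and 4.65%) and 10.3% lower and 10.5% higher of all genes. Without DMSO replicate 3 there were 7 of the 8 lower, with a median of -0.36. At 2 weeks all 8 were on the higher side of named actd, with a median of 0.21, beside 0.15 for the other 43. The split by motif was made with the 72 h results known and carries no test.

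Footprints covered the ER genes thinly. The 51 genes together held few counts per library: between 243 and 1111 at 6 h, between 618 and 5121 at 72 h, and at 2 weeks between 534 and 1238. SEC61B, SEC61G, SEC11C and PDIA6 were listed at 0 in all 18 footprint libraries, although PDIA6 RNA lay between 147 and 198 CPM at 6 h. Of the 36 ER genes with at least 50 CPM of RNA in 6 h DMSO, 3 were listed at 0 in all 18 footprint libraries (8.33%, against 2.24% of 3884 protein-coding genes at that level). A listed 0 may be a failed estimate in a gene the cell uses, and no claim on translation is made from it. The filter on low counts passed 8 of the 51 at 6 h, 24 at 72 h and 14 at 2 weeks. A gene that passed only through the group where it is high had to differ, so the counts over these genes are descriptions. Among those named below, SSR1, SSR2, CANX and PRDX4 at 72 h and HYOU1 at 2 weeks passed only through actD. SRPRA at 72 h passed only through DMSO.

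At 6 h the 8 ER genes tested showed no shift in footprints. The median log2 difference was 0.11, equal to that of all 1212 genes tested. No gene was called, in the list or outside it (0%), no ER gene had an unadjusted p under 0.05 (3.14% of all), none was called by DESeq2 (0.99% of all), and no ER gene tested had groups apart (3.71% higher and 5.69% lower of all genes). HSPA5 footprints were 329, 189.6 and 189 CPM in DMSO and 88.9, 191 and 335 with actD (-0.21, SE 0.69, edgeR adjusted p = 0.948). HSP90B1 had 265, 193 and 142 and 182, 236 and 326 CPM (0.31, SE 0.58, edgeR adjusted p = 0.907). The spread within either group was wider than the difference. With library totals in place of TMM the median of all genes moved by -0.72 and all 8 ER genes lay below 0 (median -0.58), and without actD replicate 3 their median was -0.52. P4HB (0.49), CALR (0.24) and SPCS3 (-0.60) had SEs between 0.5 and 0.84. Translational efficiency at 6 h, the footprint difference relative to the RNA difference, had a median of 0.094 over the 8 genes, with none called by edgeR or DESeq2 and none with an unadjusted p under 0.05 (0% and 5.26% of all 951 genes).

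At 72 h edgeR called 2 ER genes in footprints, both higher with actD: SSR2 of the TRAP complex and the peroxiredoxin gene PRDX4. Both passed the filter only through actD and had to differ, PRDX4 with 0 listed in all DMSO libraries. Both calls are therefore descriptions and not tests. Most other translocon and oligosaccharyltransferase genes tested lay on the higher side without passing the threshold, while SEC62 (-0.17), SPCS3 (-0.67), SRPRA (-3.04), HSPA5 (-0.88) and XBP1 (-2.32) lay on the lower side, also without passing it. Of the 24 ER genes tested, 15 were higher, with a median of 0.73, beside 0.074 for all 2426 genes tested. The median was the same with the 1 gene listed at 0 in DMSO set to its lower bound. The translocon and TRAP genes had a median of 1.82 (5 tested) and oligosaccharyltransferase one of 1.46 (3 tested), against 0.19 for the 10 chaperones. The 2 calls among the 24 stand against 3.79% of all genes called. DESeq2 called 5 of the 24, SSR1, SSR2, SSR4 and PRDX4 higher and SRPRA lower (4.41% of all genes). Apart from SSR4, these passed the filter only through the group where they were high, so those calls are descriptions. An unadjusted p under 0.05 was found in 8 higher ER genes and 1 lower (14.2% and 13.1% of all). The groups did not overlap in 11 higher ER genes, 45.8% against 19.5% of all, and in 3 lower ones, 12.5% against 16.2%.

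SSR2 encodes the beta subunit of the TRAP complex, which helps proteins with weak signals through the channel. Its footprint counts were 5, 9 and 2 in the DMSO libraries and 69, 36 and 62 with actD, or 11.3, 30.2 and 24.9 CPM and 103, 97.9 and 73.8 CPM. All actD libraries lay above all DMSO libraries. The log2 difference was 2.13 (SE 0.45, edgeR adjusted p = 0.0473), while SSR2 RNA differed by -0.18. SSR2 passed the filter only through the actD group, so its footprint difference and p-values are descriptions and not a test. The call rests on few counts: it was lost without any 1 of 5 of the 6 libraries, all but actD replicate 3 (adjusted p = 0.0661 to 0.24), with library totals (0.272) and in 1 fit over 3 time points (0.0876).

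PRDX4, a peroxiredoxin that helps form disulfide bonds, was listed at 0 in the 3 DMSO libraries. It passed the filter only through the actD group, so its fold and p-values are descriptions and not a test. With actD it had 35, 15 and 24 counts, or 52.3, 40.8 and 28.5 CPM. Against a floor of 3 counts per DMSO library, 18.1 CPM on average, this was at least 2.24-fold higher. The edgeR adjusted p was 0.0473, and 0.203, 0.166, 0.148 and 0.13 without DMSO replicate 1, DMSO replicate 2, actD replicate 1 and actD replicate 2. PRDX4 RNA was 223, 190.1 and 175 CPM in DMSO and 217, 215 and 146 with actD, with overlapping groups. The same pattern of 0 in all DMSO libraries and counts with actD was listed for SSR3 (5, 3 and 79 counts), SRP9 (59, 0 and 53) and SRPRB (32, 0 and 26), which did not pass the filter. Such a group-wide 0 in genes with abundant RNA may be a failed estimate.

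The other TRAP subunits stood higher too. SSR1 (alpha) was 20.4, 0 and 74.6 CPM in DMSO and 214, 160.4 and 127 with actD (2.91, SE 0.94, edgeR adjusted p = 0.103). SSR4 (delta) was 58.8, 97.2 and 74.6 and 276, 169 and 370.0 CPM (1.82, SE 0.45, edgeR adjusted p = 0.066). In neither did the groups overlap. The channel gene SEC61A1 was 24.9, 46.9 and 0 CPM in DMSO and 50.8, 54.4 and 124 with actD (1.41, SE 0.65, edgeR adjusted p = 0.201). SEC62, in contrast, overlapped at 74.7, 67.1 and 99.5 and 65.7, 57.1 and 83.3 CPM (log2 difference -0.17).

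Downstream of the channel, SEC11A of signal peptidase was 52.0, 70.4 and 49.7 CPM in DMSO and 152, 144 and 142 with actD (1.32, SE 0.33, edgeR adjusted p = 0.0682), a tight group above another. The oligosaccharyltransferase genes OSTC (1.59, SE 0.45, edgeR adjusted p = 0.0834), DAD1 (1.46, SE 0.45, edgeR adjusted p = 0.0997) and RPN1 (1.41, SE 0.73, edgeR adjusted p = 0.242) were also apart upward. SPCS3 overlapped at 81.4, 57.0 and 87.1 and 44.8, 35.3 and 57.1 CPM (-0.67). Calnexin (CANX), the membrane lectin chaperone, was 13.6, 238 and 37.3 CPM in DMSO and 519.6, 405 and 299.8 with actD (2.03, SE 0.91, edgeR adjusted p = 0.195), with the second DMSO library far above the other 2. Its RNA differed by -0.034.

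HSPA5 footprints went the way of its RNA, at 1219, 1023 and 2114 CPM in DMSO and 715, 653 and 994 with actD. The groups lay apart by 2 close values, and the log2 difference was -0.88 (SE 0.5, edgeR adjusted p = 0.28). XBP1 was 45.2, 33.5 and 298 CPM in DMSO and 28.4, 0 and 28.5 with actD (-2.32, SE 1.07, edgeR adjusted p = 0.201), and its highest DMSO value rests on 24 counts. Without DMSO replicate 3 its difference was -0.90 and that of HSPA5 -0.47. SRPRA, the alpha subunit of the SRP receptor, was 24.9, 97.2 and 187 CPM in DMSO and 4.48, 19.0 and 10.7 with actD, from 11, 29 and 15 and 3, 7 and 9 counts. For SRPRA the log2 difference was -3.04 (SE 0.79, edgeR adjusted p = 0.071), and DESeq2 gave an adjusted p of 0.0131. SRPRA passed the filter only through the DMSO group, so these values are descriptions and not a test. HSP90B1 overlapped at 1549.6, 1079.6 and 2599 and 1984, 1403 and 1179 CPM (-0.19), as did PDIA4 (-0.44), CALR (-0.067) and P4HB (0.72).

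**Figure D4:**
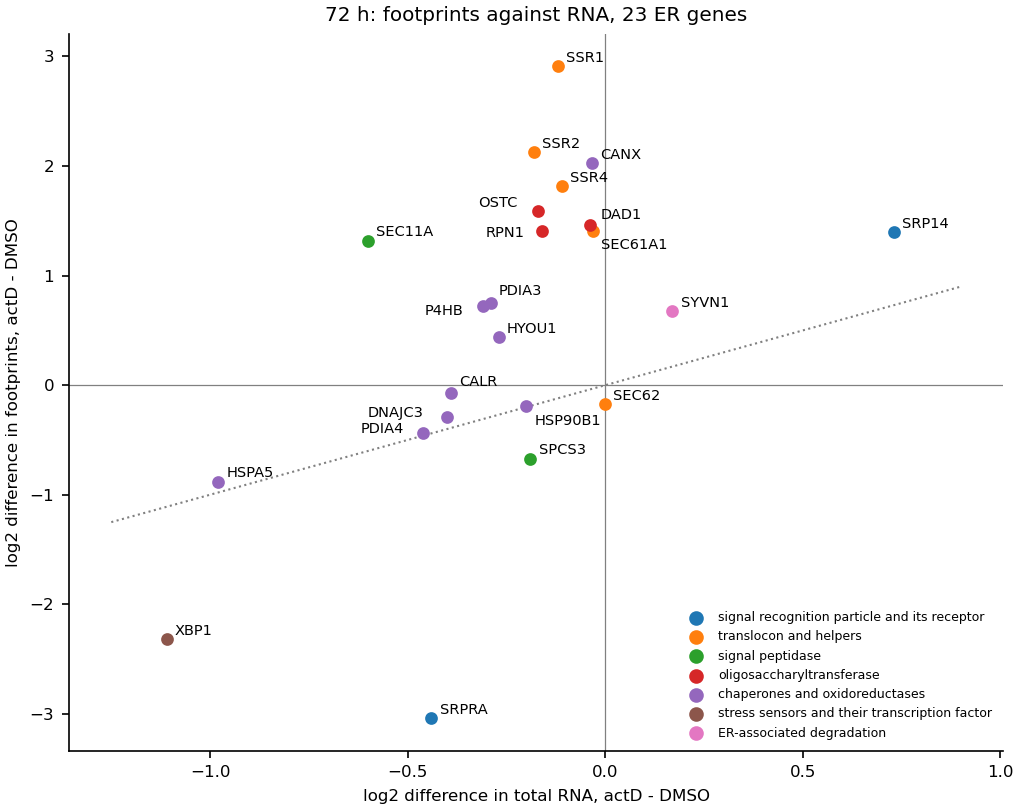
Log2 differences at 72 h in footprints (vertical axis) against those in total RNA (horizontal axis) for the 23 ER genes tested in both other than PRDX4, 1 point per gene, coloured by role; the dotted line marks equal change. SSR1, SSR2, SSR4 and CANX lie between -0.18 and -0.034 in RNA and between 1.82 and 2.91 in footprints, while HSPA5 lies close to the line of equal change.

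All 51 genes together took 1.70% to 2.30% of protein-coding footprint counts in DMSO at 72 h and 1.63% to 1.81% with actD, with overlapping groups. Library depth and gene length differ among these footprints, and their part in the differences was not tested. Replicate 3 of DMSO held only 152556 counts, so that 3 counts there amount to 37.3 CPM. Without it 31 ER genes passed the filter, 23 of them higher, with a median of 1.16, and the 24 genes above had a median of 0.76. Over all 2225 protein-coding genes tested, the log2 difference fell with exon length (Spearman rho -0.36, across genes, which are not independent). Over the 24 ER genes rho was 0.00. The median exon length was 4642.5 bases in these 24 and 5669 in the 2225. With each library left out in turn, the median of these 24 genes ran from 0.46 to 1.02.

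Translational efficiency at 72 h was called higher in 1 of the 24 ER genes, PRDX4 (edgeR adjusted p = 0.00914, a comparison with footprints listed at 0 in all 3 DMSO libraries, from which nothing on translation is read; against 0.433% of all 2311 genes called). DESeq2 called 6 of the 24, SSR1, SSR2, SSR4, SEC11A and PRDX4 higher and SRPRA lower (2.55% of all genes). Apart from SSR4 and SEC11A, these passed the footprint filter only through the group where they were high, so those calls are descriptions. At an unadjusted p under 0.05 there were 6 higher and 1 lower (9.17% and 5.76% of all). The median was 0.73, beside 0.032 for all genes. SSR2 stood at 2.21 (SE 0.53, edgeR adjusted p = 0.0899), SSR1 at 2.99 (SE 0.98, edgeR adjusted p = 0.208) and CANX at 1.93 (SE 0.96, edgeR adjusted p = 0.375). HSPA5 had -0.0058 (SE 0.55, edgeR adjusted p = 0.999), the value closest to 0 of those named here. XBP1 had -1.16 (SE 1.05, edgeR adjusted p = 0.623), SEC61A1 1.34 (SE 0.79, edgeR adjusted p = 0.445) and HSP90B1 -0.12 (SE 0.54, edgeR adjusted p = 0.959). PRDX4 lost the call without DMSO replicate 1 of the footprints (adjusted p = 0.0596). CANX gained one without DMSO replicate 2 of the footprints (log2 difference 4.26, adjusted p = 0.0185). SPCS3 (-0.62) and SEC62 (-0.27) were on the lower side.

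At 2 weeks, 13 of the 14 ER genes tested had more footprints in actD libraries, none of them past the threshold. The footprint libraries carry no conflict of labels. The 14 are those that passed the filter: in 1 fit over 3 time points 30 ER genes were tested, 22 higher and 7 lower with a median of 0.36, and without a filter the median was 0.13. The median was 0.66, beside 0.020 for all 1598 genes tested. No gene was called in the list or outside it (0%), and none by DESeq2. An unadjusted p under 0.05 was found in 4 higher ER genes and no lower one (4.07% and 4.51% of all). In 6 of the 14 the groups did not overlap, all higher, or 42.9% against 8.32% of all genes, and none was lower without overlap against 6.57%. With library totals in place of TMM the median of all genes moved by -0.16 and that of the ER genes stood at 0.46. The 51 genes took 1.06% to 1.44% of protein-coding footprint counts in DMSO and 1.33% to 1.95% with actD, with overlapping groups. Over all 1330 protein-coding genes tested, the log2 difference fell with exon length (Spearman rho -0.4, across genes, which are not independent). Over the 14 ER genes rho was 0.15. The median exon length was 4642.5 bases in these 14 and 6353.5 in the 1330, and the part of length was not tested.

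HYOU1 was at 10.8, 9.90 and 9.06 CPM in DMSO and 17.1, 19.4 and 30.6 with actD, from 7, 11 and 6 and 15, 17 and 21 counts (1.14, SE 0.32, edgeR adjusted p = 0.527). HYOU1 passed the filter only through the actD group, so its difference is a description and not a test. HSPA5 was 238, 237 and 163 CPM in DMSO and 251, 373 and 402 with actD (0.68, SE 0.37, edgeR adjusted p = 0.587). CALR was 116, 132 and 112 and 140.1, 242 and 229 CPM (0.76, SE 0.36, edgeR adjusted p = 0.562). In these 3 chaperone genes, all with an ERSE or ERSE-II, every actD library lay above every DMSO library, although the lowest HSPA5 value with actD was close to the highest in DMSO. Of the 4 genes with such an element tested here, HSP90B1 overlapped. The 4 had a median of 0.72, beside 0.63 for the other 10 ER genes tested. In 72 h footprints 6 genes with such an element were tested, 2 higher and 4 lower, with a median of -0.13. SEC11A was apart too, at 17.0, 20.7 and 22.6 and 25.1, 36.5 and 45.2 CPM (0.81, SE 0.32, edgeR adjusted p = 0.562). SSR4 (0.64) and SRPRA (1.39) completed the 6.

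The remaining genes overlapped. HSP90B1 was 291, 319 and 199 CPM in DMSO and 254, 357 and 419.8 with actD (0.35, SE 0.38, edgeR adjusted p = 0.771). SPCS3 was 68.1, 40.5 and 18.1 and 66.1, 65.0 and 99.1 CPM (0.86, SE 0.49, edgeR adjusted p = 0.601), with DMSO replicate 3 the lowest of the 6. P4HB, the 1 gene on the lower side, was 80.5, 59.4 and 39.2 and 63.8, 21.7 and 91.8 CPM (-0.02, SE 0.54, edgeR adjusted p = 0.987). PRDX4, which did not pass the filter, was listed at 0, 0 and 2 counts in DMSO and 12, 8 and 7 with actD, again without overlap.

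**Figure D5:**
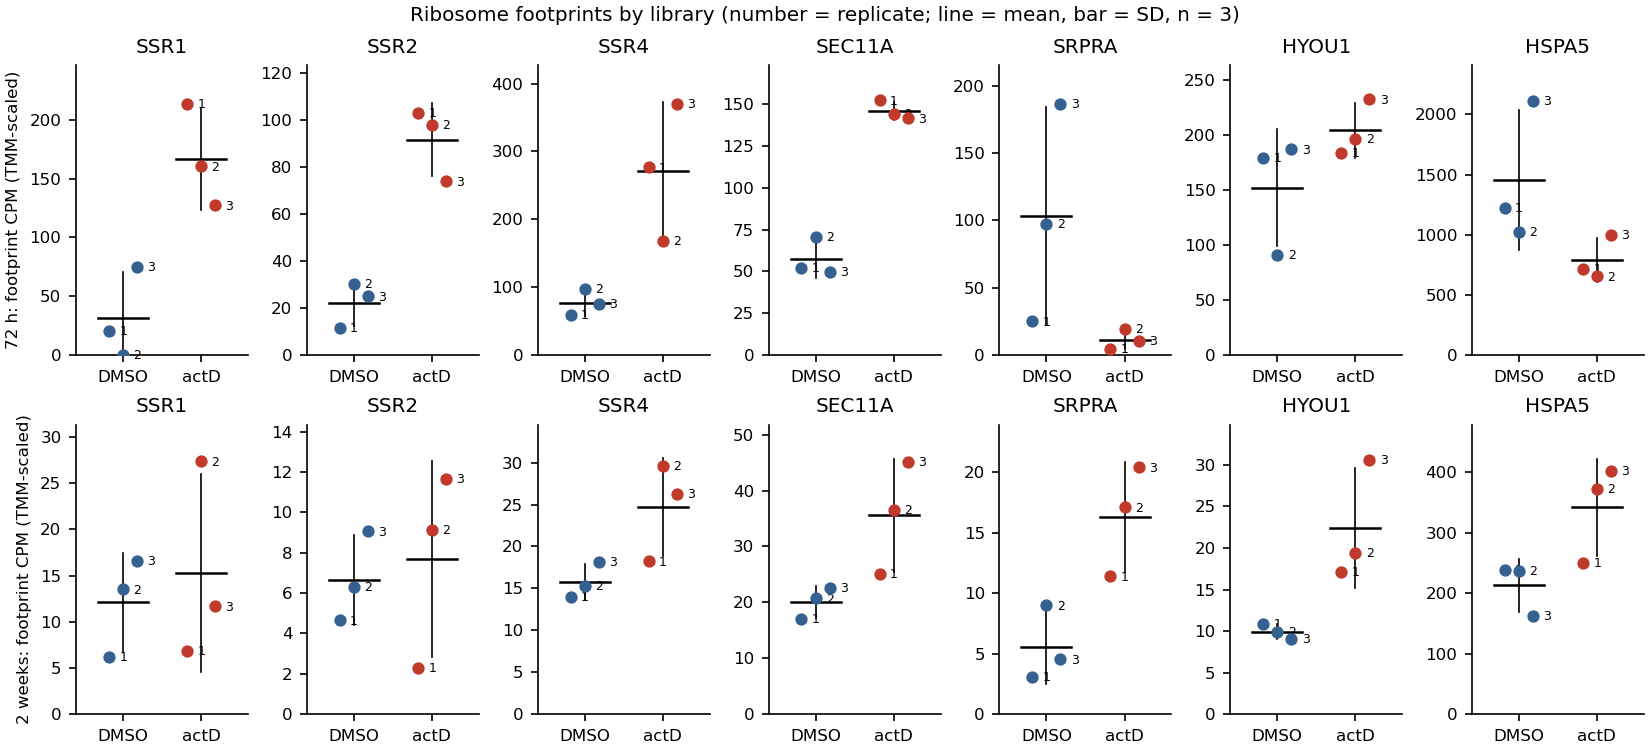
Footprints in CPM (vertical axis) of 7 ER genes in each library at 72 h (top) and 2 weeks (bottom), with the replicate number beside each point, the mean as a line and the SD as a bar. SSR4 and SEC11A lie higher with actD without overlap at both times, SSR1 and SSR2 do so at 72 h and overlap at 2 weeks, and SRPRA and HSPA5 lie lower with actD at 72 h and higher at 2 weeks.

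Translational efficiency at 2 weeks had a median of 0.34 over the 14 genes, beside -0.019 for all 1441 genes, with named actd taken as actD. No gene was called by edgeR (0%), and none of the 14 by DESeq2 (0.0694% of all). Unadjusted p-values under 0.05 occurred in 3 higher ER genes and no lower one (2.71% and 2.43% of all). SPCS3 stood at 0.66 (SE 0.43, edgeR adjusted p = 0.93), SEC11A at 0.63 (SE 0.29, edgeR adjusted p = 0.879) and HSPA5 at 0.21 (SE 0.37, edgeR adjusted p = 0.981). CALR (0.32), HSP90B1 (0.18), PDIA4 (-0.09) and P4HB (-0.042) were within 1 SE of 0. With the RNA treatments taken from the titles the median was 0.86.

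Tests of the difference between time points in footprints called no ER gene with edgeR. From 6 h to 72 h the median interaction of 26 ER genes was 0.46, beside 0.22 for all genes (0% of 3012 called), with 3 ER genes higher and 1 lower at an unadjusted p under 0.05 (4.52% and 2.03% of all). DESeq2 called PRDX4 there (adjusted p = 0.000896; 0.199% of all genes called), whose footprints were listed at 0 in all 6 h actD and all 72 h DMSO libraries. From 72 h to 2 weeks the median of 28 ER genes was -0.89, beside -0.12 for all genes (0.0532% of 3760 called), with 3 higher and 4 lower at an unadjusted p under 0.05 (2.98% and 4.52% of all). DESeq2 called SRPRA (0.293% of all genes called), lower at 72 h and higher at 2 weeks (interaction 4.31, SE 0.98, edgeR adjusted p = 0.241, DESeq2 adjusted p = 0.032). The interaction of HSPA5 was also positive (1.41, SE 0.57, edgeR adjusted p = 0.584) and that of SSR2 negative (-2.08, SE 0.76, edgeR adjusted p = 0.511). The 2 interactions share the 72 h libraries.

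A second list of 74 ER genes from the same pathways gives the setting: the ER membrane complex, further folding, glycosylation, translocation and degradation genes, and further stress genes. At 72 h RNA, 39 of its 72 genes tested were lower, with a median of -0.065, 7 lower and 4 higher without overlap (9.72% and 5.56%, against 10.3% and 10.5% of all genes), and none called by edgeR. Its folding and redox genes had a median of -0.25 over 21 genes, and its ER membrane complex genes one of 0.14 over 7. At 2 weeks 56 of 73 were higher in named actd (median 0.14), 22 without overlap on that side and 2 on the other (30.1% and 2.74%, against 7.86% and 7.83% of all genes), and none was called. In footprints at 72 h, 14 of 18 were higher, with a median of 0.56 beside 0.074 for all genes. Without overlap were 4 higher and 3 lower (22.2% and 16.7%, against 19.5% and 16.2% of all genes). EdgeR called 3 of the 18, against 3.79% of all genes. Higher were the oligosaccharyltransferase subunit KRTCAP2 (2.16, SE 0.42, edgeR adjusted p = 0.0473) and the degradation enzyme UBE2G2 (3.56, SE 0.72, edgeR adjusted p = 0.0473). Lower was the extraction motor VCP (-2.86, SE 0.57, edgeR adjusted p = 0.0473). At 2 weeks 7 of its 9 genes tested in footprints were higher, with a median of 0.59 and none called.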

How the data were processed

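WiT49 cells were profiled by total RNA sequencing and ribosome footprinting in 36 libraries, 3 per group. The deposited tables hold estimated counts per gene, made by the authors; HISAT2, StringTie and hg38 are named in the submitters' processing notes without role or version, and the use of strand is not given in the sources used here. The counts were rounded to whole numbers. Gene IDs were matched to GENCODE symbols (99.4%). Each comparison was fitted over all genes with edgeR 4.0.16 (quasi-likelihood test, TMM scaling, edgeR's filter on low counts, two-sided, Benjamini-Hochberg adjustment, threshold 0.05) under R 4.3.3. Translational efficiency was the assay-by-treatment interaction over 12 libraries, and time points were compared by a treatment-by-time interaction. With 3 libraries against 3 an exact permutation test cannot go below 0.1, so none is given. The fits were tested on simulated data. Same-numbered libraries were not taken as paired: no comparison had every correlation between their deviations over 0.1. Between RNA and footprints all 3 were over it in 72 h actD (0.182, 0.193 and 0.421) and 2-week DMSO (0.13, 0.106 and 0.132), but not in the other group of the same fit (lowest 0.0634 and 0.0807). Even so, each 72 h actD RNA library correlated best with the DMSO library of its own number (0.0688, 0.259 and 0.158). The same was true of each 2-week RNA library with its footprint library. Whether libraries of the same number share a culture or batch was not tested. Alternatives were DESeq2 1.42.0, library totals, no filter, 1 fit over all times, a replicate block, the treatments given by the titles, and each library left out. No 2 libraries of the same group agreed within sampling noise. The ER genes, the further lists and the tests were chosen with earlier results of these data known. Every member is accounted for by role. Full values are given for genes past the threshold, for those with the largest differences in each direction (RNA: groups apart; footprints: a mean of at least 20 counts) and for HSPA5, HSP90B1, the sensors, XBP1 and SEC61A1, and further genes were named after their values were seen. Footprint depth limits precision: 3 counts amount to 2.7 to 37.3 CPM, for counting error only.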

Additional observations from a re-analysis of the deposited data

Results flagged for a closer look

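In 3 ER genes every actD library lay on one side of the DMSO libraries in RNA at 72 h and on the other side at 2 weeks, taking named actd as actD. SRPRA differed by -0.44 at 72 h and by 0.16 at 2 weeks (log2). PDIA6 differed by -0.52 and 0.22. HERPUD1 differed by -1.22 and 0.12, and its 72 h value was -0.33 without DMSO replicate 3. The difference between these 2 times was not tested. If the titles of the 2-week RNA libraries are right, both times have the same sign.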

How the results depend on the processing

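Of the counts and medians over the ER genes, 335 values under an alternative stayed within a margin and 59 did not. For counts the margin was a fixed ratio to the main value, and for medians the spread of the list's median between libraries. The side was not checked: the footprint median at 6 h went from 0.11 to -0.52 without actD replicate 3 and is counted as staying. For single genes 1205 stayed, 11 came past the threshold and 16 lost it. In 4 the sign turned with the gene called or with both differences beyond their SE. Other turns of sign, in genes not called, are counted among those that stayed. The causes were not tested. DESeq2 called 1 ER gene in RNA at 6 h, 1 at 72 h, 5 in footprints at 72 h, 6 in translational efficiency at 72 h, and 1 in each footprint comparison of times. In 1 fit over 3 time points 3 were called in RNA at 72 h. The footprint median at 72 h was then 1.22 over 30 ER genes, and 0.93 over the 24 genes of the main fit. With library totals the RNA median at 2 weeks was -0.0038 with 1 gene apart, the footprint median at 6 h -0.58, and 1 gene was called in footprints at 72 h; the medians of translational efficiency were -0.70 at 6 h and 1.11 at 72 h. Without a filter, 10 ER genes were called in footprints at 72 h, 1 at 2 weeks, 3 for 72 h against 6 h and 6 for 2 weeks against 72 h. The share of all genes called without a filter is not given here, so these counts have no background. The 10 include PRDX4, SRP9, SRPRB and SSR3, listed at 0 in all 72 h DMSO footprint libraries. The medians without a filter were 1.48, 0.13 and, for 72 h against 6 h, 1.40, and in translational efficiency 1.46 at 72 h and -0.009 at 2 weeks. By titles the 2-week RNA median was -0.15 (SRP14 -0.41, SEC61A2 -0.34, HSPA5 -0.42, PDIA3 -0.38) and that of translational efficiency 0.86. With the replicate block 0 ER genes were called in footprints and 0 in translational efficiency at 72 h, where a replicate block by culture also called 0. With 1 library left out, genes apart ran from 7 to 15 in RNA at 6 h, 12 to 21 at 2 weeks and 0 to 1 in footprints at 6 h, and fewer libraries make such counts larger by construction. Calls ran from 0 to 4 in footprints and 1 to 3 in translational efficiency at 72 h and from 0 to 1 for RNA at 72 h against 6 h. Medians ran from 0.62 to 1.52, 0.63 to 1.42 (1.12 without DMSO replicate 1 and 1.39 without actD replicate 2 of the footprints) and, for footprints at 72 h against 6 h, 0.64 to 2.09 (1.27 without DMSO replicate 1 of 72 h and 1.26 without DMSO replicate 3 of 6 h). The genes behind these medians change with the filter and the library left out. Over the same 24 genes the footprint median at 72 h ran from 0.46 to 1.02 with 1 library left out, and was 0.88 without a filter.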
